A study of Mus musculus with 4 samples.

Results

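Phase II of drug metabolism joins a small polar group to a foreign compound, a steroid, a bile acid or bilirubin, so that the cell can export it. The enzymes described here are the 3 main conjugating groups: the UDP-glycosyltransferases (Ugt), which attach a sugar, mostly glucuronic acid, the glutathione S-transferases (Gst and the membrane-bound Mgst), which attach glutathione, and the cytosolic sulfotransferases (Sult), which attach sulfate. They were chosen by name, as every probe other than controls whose gene name in the scanner files begins with Ugt1a, Ugt2a, Ugt3a, Ugt2b, a Gst class letter (a, m, p, t, k, o or z), Mgst or Sult, followed by a digit. This gave 55 genes on 83 of the 55681 probes. The rule uses no measured value.

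The samples were primary hepatocytes from mice of the strain labelled bl6, on 2 arrays for each treatment, lettered a and b in their titles and called replicates here. Both groups were grown in medium with 10% fetal bovine serum and then kept overnight in 0.5% serum with 5 µM simvastatin, an inhibitor of sterol synthesis, and 100 µM mevalonic acid, which lies downstream of the step the statin blocks. The groups differed in what was added with these: DMSO, the solvent, or 1 µM GW3965, which activates the liver X receptors (LXR), sensors of oxysterols. Age, sex and genotype beyond the strain are not given in the labels, nor do the labels say whether the lettered replicates are separate animals or cultures, so p-values measure only the spread between these samples. As a limit of the model, cultured hepatocytes are known to lose part of their drug-metabolizing expression after plating, and no freshly isolated liver cells were among the samples.

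Values are the log2 signal of a probe relative to the 75th percentile of its array, so they compare a probe with itself across arrays and not one probe with another. Between 62.5% and 69.1% of probes were well above background on each array, and 0 were saturated. A gene counts as measured where, in at least 1 group, both arrays read its probe well above background. All 10 hepatocyte markers examined were measured, and so were 8 of 8 macrophage and leukocyte, 6 of 6 endothelial, 6 of 7 stellate and fibroblast and 4 of 5 cholangiocyte markers. The values are those of whole cultures, in which fewer cells of a type and less RNA per cell cannot be told apart. The LXR target Abca1, a cholesterol exporter, stood at 1.46 (a) and 0.55 (b) in DMSO cells and 3.31 (a) and 3.85 (b) in GW3965 cells, and Abcg1, another sterol exporter, at 1.42 (a) and 0.95 (b) in DMSO cells and 2.89 (a) and 3.42 (b) in GW3965 cells. Srebf1, a transcription factor of lipid synthesis, differed by 1.24 ± 0.20 (SE). All 6 LXR reference genes, listed with earlier results of these data known, were higher on both GW3965 arrays than on both DMSO arrays. Over all genes that share was 9.41%. Their median log2 difference was 1.14. Each had an unadjusted p under 0.05 in limma, against 0.824% of all genes, though 0 passed the adjustment over all genes.

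Conjugating enzymes come in clusters of near copies, so what each probe can tell apart bears on every value below. 3 sets of probes are shown for that reason, each aligned without gaps, with capitals for the bases that are the same in every probe of the set. The first set holds the probes of 3 mu-class glutathione S-transferases on mouse chromosome 3 (build mm9, minus strand), where the genes lie side by side. The probes for Gstm3 (chr3:107769290-107770549), Gstm6 (chr3:107745052-107745111) and Gstm7 (chr3:107732073-107733247) fell on matching parts of their transcripts, and those of Gstm3 and Gstm7 span an intron in the genome.
Gstm3: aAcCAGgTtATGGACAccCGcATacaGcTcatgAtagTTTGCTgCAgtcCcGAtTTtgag
Gstm6: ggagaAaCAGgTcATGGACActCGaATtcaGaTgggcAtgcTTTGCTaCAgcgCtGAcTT
Gstm7: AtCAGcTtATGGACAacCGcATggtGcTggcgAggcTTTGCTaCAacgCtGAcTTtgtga
Over the 55 aligned bases shared by the 3 probes, 32 were the same in all of them. Gstm6 and Gstm7 differed at 14 of 55 bases, Gstm3 and Gstm6 at 17 of 56, and Gstm3 and Gstm7 at 19 of 59.

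The second set holds the probes for Gstp1 (chr19:4035908-4036723) and Gstp2 (chr19:4040983-4041042), both on the minus strand of mm9. These pi-class copies are neighbours.
Gstp1: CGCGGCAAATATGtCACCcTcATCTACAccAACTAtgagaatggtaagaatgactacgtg
Gstp2: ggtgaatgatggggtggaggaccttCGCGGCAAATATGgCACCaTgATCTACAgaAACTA
They overlapped over 35 bases and differed at 5 of them. The third set holds the probes for Ugt1a10 (chr1:89952780-89952839) and Ugt1a6b (chr1:90004249-90004308), on the plus strand of mm9. Ugt1a transcripts each begin with their own first exon and share all later ones, so a probe can separate them only in the first.
Ugt1a10: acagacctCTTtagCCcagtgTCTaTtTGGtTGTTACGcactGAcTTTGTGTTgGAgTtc
Ugt1a6b: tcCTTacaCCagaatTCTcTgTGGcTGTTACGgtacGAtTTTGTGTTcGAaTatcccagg
Of 54 aligned bases, 32 were the same and 22 differed. Among all pairs of the 83 probes, 5 pairs for different genes overlapped by at least 40 bases at 75% identity or more. The closest of these in measured genes were Gsta1 and Gsta2, with 46 of 50 bases the same, and Ugt2b5 and Ugt2b37, with 46 of 55. For 12 probes, 6 of them measured, the accessions that the files list for the probe belong to more than 1 gene. The brightest Ugt1a6b probe is one of them and is also listed for Ugt1a10, Ugt1a6a and Ugt1a7c, the Ugt2b36 probe also for Ugt2b37, the Ugt2a1 probe also for Ugt2a2, the Sult2a2 probe also for Sult2a5, the Ugt1a10 probe also for Ugt1a9, and the second Gstp1 probe, not printed, also for Gstp2. Signals of these genes are uncertain to that extent.

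Of the 55 genes, 46 were measured, through 69 probes, and 45 of them were well above background on all 4 arrays. The measured genes were 13 of 14 Ugt genes, 23 of 24 Gst and Mgst genes, and 10 of 17 Sult genes. For the 9 others no probe carrying the gene's name passed. They were Ugt1a6a, Gstt4, Sult1c1, Sult2a1, Sult2a3, Sult2a4, Sult2a6, Sult3a1 and Sult6b1. The Ugt1a6b probe that is also listed for Ugt1a6a was well above background on all 4 arrays, so the level of Ugt1a6a is not settled by its own probe. Gstt4 was well above background only on the a array of each group. Sult2a2, of the hydroxysteroid and bile acid sulfotransferases, passed through its GW3965 arrays, and its signal was not well above background on DMSO replicate b.

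The comparison of GW3965 with DMSO asks whether the LXR agonist shifted the conjugating machinery. LXR agonists have been linked in mouse liver to the estrogen sulfotransferase Sult1e1 and to bile acid sulfotransferases of the Sult2a group. In these arrays 0 of the 46 measured members passed an adjusted p under 0.05 in limma, as did 0% of all 24638 genes tested. At an unadjusted p under 0.05 the counts were 0 of 46 members and 0.824% of all genes. The smallest unadjusted p among the members was 0.304, for Ugt3a1, and each of their adjusted p-values was 1.00. Neither in 1 direction nor in the other did the groups of arrays separate: 0 of 46 members were higher on both GW3965 arrays than on both DMSO arrays, against 9.41% of all genes, and 0 were lower, against 6.55%. These counts do not show a smaller response of the members. The median size of the difference between treatments was 0.09 over the members and 0.10 over all genes. The median gap between replicates was wider in the members, 0.57 against 0.29, and a wide gap makes overlap more likely and the SE larger. With 2 arrays a side, the smallest two-sided p of an exact permutation test is 0.333.

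The median log2 difference, GW3965 minus DMSO, was -0.04 over the members and -0.01 over all genes, and the members ran from -0.37 to 0.44. The mean was higher with GW3965 for 16 members and lower for 30 in this scaling, 20 and 26 after quantile normalization, and 13 and 33 when arrays were centred on their medians. These counts turned with the arrays included. Leaving out 1 array unbalances the letters a and b between the groups, so the gap between replicates then enters the difference. Without DMSO replicate a they became 31 higher and 15 lower, without GW3965 replicate b 33 and 13, without DMSO replicate b 8 and 38, and without GW3965 replicate a 10 and 36. The median log2 difference of the members became 0.13, 0.17, -0.27 and -0.33 in the same order. With 1 array against 2, groups separate easily. In the same order, members higher without overlap numbered 10, 18, 3 and 3 of 46, against 23.9%, 28.6%, 34.3% and 32.5% of all genes. Members lower without overlap numbered 4, 3, 21 and 30 of 46, against 32.8%, 28.4%, 22.1% and 29.3% of all genes. The members were thus neither shown to differ between the groups nor shown to be alike. The 95% interval of the difference stayed within 1 log2 unit of 0 for 26 of the 46, and its half-width ran from 0.47 (Ugt1a10) to 1.92 (Gsto2). The fit had no block for the letters, so the gap between replicates counts as error in these intervals.

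**Figure D1:**
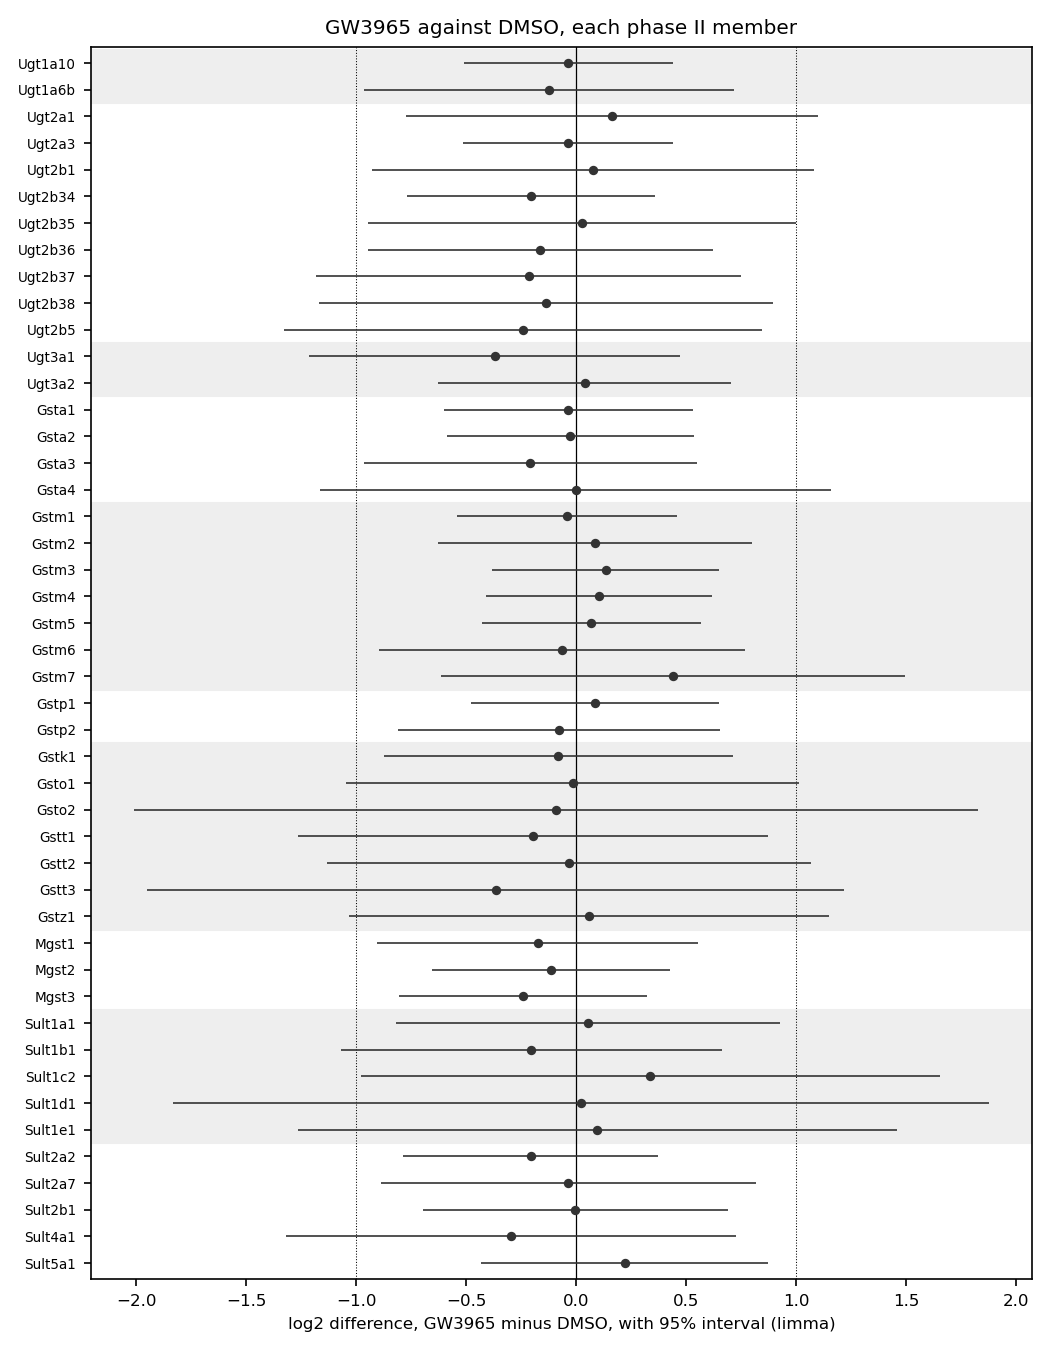
Log2 difference between GW3965 and DMSO for each of the 46 measured members (points, 2 arrays per group) with the 95% interval from limma (bars); shading separates families, and dotted lines mark a difference of 1. Every interval crosses 0, and 26 lie wholly between the dotted lines. The fit had no block, so the gap between replicates counts as error in the intervals.

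Among the UDP-glycosyltransferases, the Ugt1a genes serve phenols and bilirubin. Ugt1a6b stood at 5.24 (a) and 4.72 (b) in DMSO cells and 5.17 (a) and 4.54 (b) in GW3965 cells, a log2 difference of -0.12 ± 0.32 (SE). The b array of each group was below both a arrays, and the treatments overlapped. The probe for Ugt1a10 stood at -2.21 (a) and -2.28 (b) in DMSO cells and -2.26 (a) and -2.30 (b) in GW3965 cells, with the smallest SE of any measured member. Its 95% interval was -0.51 to 0.44. The Ugt1a6b probe printed above was not the one used and gave a difference of -0.05.

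The Ugt2b genes glucuronidate steroids and bile acids. Ugt2b34 stood at 3.98 (a) and 3.66 (b) in DMSO cells and 3.71 (a) and 3.53 (b) in GW3965 cells, a difference of -0.20 ± 0.22 (SE), with GW3965 replicate a above DMSO replicate b. Ugt2b38 stood at 3.77 (a) and 3.004 (b) in DMSO cells and 3.63 (a) and 2.87 (b) in GW3965 cells, and Ugt2b36 at 2.50 (a) and 1.94 (b) in DMSO cells and 2.29 (a) and 1.82 (b) in GW3965 cells. In both genes the a arrays of the treatments lay above the b arrays. Across the 7 Ugt2b genes the log2 difference ran from -0.24 to 0.08. Ugt2a1, known best from the nose, stood at -4.05 (a) and -3.66 (b) in DMSO cells and -4.12 (a) and -3.26 (b) in GW3965 cells, with the b arrays on top.

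Ugt3a1, which transfers N-acetylglucosamine in place of glucuronic acid, had the lowest difference of the members. It stood at 0.38 (a) and -0.16 (b) in DMSO cells and 0.05 (a) and -0.57 (b) in GW3965 cells, a difference of -0.37 ± 0.32 (SE) with a 95% interval of -1.21 to 0.47. DMSO replicate b lay between the GW3965 arrays. The other gene of that family, Ugt3a2, stood at 2.75 (a) and 2.23 (b) in DMSO cells and 2.61 (a) and 2.45 (b) in GW3965 cells, a difference of 0.04 ± 0.25.

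Among the glutathione S-transferases, the alpha class is abundant in liver and binds bile acids and bilirubin besides conjugating. Gsta1 stood at 8.08 (a) and 8.05 (b) in DMSO cells and 8.21 (a) and 7.84 (b) in GW3965 cells, and Gsta2, whose probe is its near copy, at 7.17 (a) and 7.14 (b) in DMSO cells and 7.31 (a) and 6.95 (b) in GW3965 cells. Both patterns place GW3965 replicate a highest and GW3965 replicate b lowest, with DMSO between. Gsta3 stood at 5.55 (a) and 5.19 (b) in DMSO cells and 5.46 (a) and 4.87 (b) in GW3965 cells, a difference of -0.21 ± 0.29 (SE). Gsta4, which clears the lipid peroxidation product 4-hydroxynonenal, stood at 0.71 (a) and -0.14 (b) in DMSO cells and 0.74 (a) and -0.17 (b) in GW3965 cells. The a arrays of Gsta4 lay close to each other and so did the b arrays, and the difference between treatments was -0.0015 ± 0.44 (SE). The 4 alpha genes all had lower means with GW3965 in this scaling, while after quantile normalization 2 were higher.

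Of the 7 mu-class genes, 3 of which have probes printed above, 5 had a higher mean with GW3965 and 2 a lower one under each of the scalings tried. The split also depended on the probe. For Gstm6, looked at after its values were seen, the probe used gave -0.06. Its other measured probes gave 0.07, 0.12 and 0.09, the last being the one printed above. The second Gstm3 probe, not printed, gave -0.01. Gstm7 had the highest difference of all members, at -2.81 (a) and -3.53 (b) in DMSO cells and -2.31 (a) and -3.15 (b) in GW3965 cells, which is 0.44 ± 0.40 (SE) with a 95% interval of -0.62 to 1.50 and an unadjusted p of 0.327 in limma. GW3965 replicate b lay below DMSO replicate a. Gstm3 stood at 3.31 (a) and 3.11 (b) in DMSO cells and 3.41 (a) and 3.27 (b) in GW3965 cells, and Gstm4 at 2.01 (a) and 1.80 (b) in DMSO cells and 2.08 (a) and 1.94 (b) in GW3965 cells, with differences of 0.13 ± 0.20 and 0.10 ± 0.20 (SE). In both genes GW3965 replicate b fell between the DMSO arrays. Gstm1 stood at 5.75 (a) and 5.65 (b) in DMSO cells and 5.75 (a) and 5.57 (b) in GW3965 cells, and Gstm2 at 3.99 (a) and 3.65 (b) in DMSO cells and 4.17 (a) and 3.64 (b) in GW3965 cells. The Gstm1 probe used, the brightest of its pair, is mapped in the files to chromosome 5 and its other probe to chromosome 3. That other probe gave a difference of 0.23 against -0.04.

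The pi class conjugates a broad range of electrophiles. Gstp1 stood at 7.29 (a) and 7.21 (b) in DMSO cells and 7.51 (a) and 7.15 (b) in GW3965 cells, a difference of 0.09 ± 0.22 (SE). Gstp2 stood at 8.88 (a) and 8.62 (b) in DMSO cells and 8.97 (a) and 8.37 (b) in GW3965 cells, a difference of -0.08 ± 0.28. For Gstp1 the probe printed above was the one used, and for Gstp2 a brighter probe stood for the gene. The printed Gstp2 probe gave a difference of 0.08, opposite in sign to the brighter one, and its a and b values differed less.

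The remaining soluble classes held the widest spreads. Gsto1, an omega-class enzyme that reduces dehydroascorbate, stood at 5.86 (a) and 6.56 (b) in DMSO cells and 5.79 (a) and 6.60 (b) in GW3965 cells, and Gsto2 of the same class at -3.01 (a) and -1.33 (b) in DMSO cells and -2.96 (a) and -1.56 (b) in GW3965 cells. Both were higher on the b arrays than on the a arrays, and for Gsto2 the gap was over 1 log2 unit in each group. In the theta class, which acts on small halogenated compounds, Gstt1 stood at 4.52 (a) and 3.73 (b) in DMSO cells and 4.33 (a) and 3.53 (b) in GW3965 cells, and Gstt3 at 1.80 (a) and 0.58 (b) in DMSO cells and 1.47 (a) and 0.18 (b) in GW3965 cells. These ran the opposite way from Gsto1 and Gsto2, with the b arrays lowest. The difference of Gstt3 between treatments was -0.37 ± 0.61 (SE) with a 95% interval of -1.95 to 1.22. Gstk1, found in mitochondria and peroxisomes, stood at 2.79 (a) and 2.41 (b) in DMSO cells and 2.84 (a) and 2.19 (b) in GW3965 cells.

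The membrane-bound Mgst1 sits in the endoplasmic reticulum and the outer mitochondrial membrane. It stood at 7.51 (a) and 7.04 (b) in DMSO cells and 7.33 (a) and 6.87 (b) in GW3965 cells, a difference of -0.18 ± 0.28 (SE). Mgst2, able to make leukotriene C4, stood at -3.64 (a) and -3.42 (b) in DMSO cells and -3.53 (a) and -3.75 (b) in GW3965 cells, the member in which the replicates of the groups ran in opposite directions. Mgst3 stood at -0.02 (a) and -0.23 (b) in DMSO cells and -0.22 (a) and -0.52 (b) in GW3965 cells, a difference of -0.24 ± 0.22. Its DMSO replicate b was below GW3965 replicate a by a narrow margin, so the treatments overlapped. All 3 Mgst means were lower with GW3965 under each scaling tried.

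Among the sulfotransferases, Sult1e1 inactivates estrogens. It stood at 4.74 (a) and 3.95 (b) in DMSO cells and 5.08 (a) and 3.80 (b) in GW3965 cells, a difference of 0.10 ± 0.52 (SE) with a 95% interval of -1.26 to 1.46. The GW3965 arrays held both the highest and the lowest value, on either side of the DMSO arrays. Sult1d1, which sulfates catecholamines, stood at 1.24 (a) and -0.25 (b) in DMSO cells and 1.26 (a) and -0.23 (b) in GW3965 cells. Between treatments it differed by 0.02 ± 0.71 (SE), while between the letters it differed by -1.49 with DMSO and -1.49 with GW3965. Sult1a1, the main phenol sulfotransferase, stood at -0.52 (a) and -0.97 (b) in DMSO cells and -0.32 (a) and -1.06 (b) in GW3965 cells, and Sult1c2 at -3.71 (a) and -4.78 (b) in DMSO cells and -3.43 (a) and -4.40 (b) in GW3965 cells. For Sult1c2 the difference was 0.34 ± 0.50 (SE), with the a arrays above the b arrays in both treatments.

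Of the 11 remaining Sult genes, 5 were measured. Sult2a2 stood at -5.35 (a) and -5.59 (b) in DMSO cells and -5.52 (a) and -5.84 (b) in GW3965 cells, a difference of -0.21 ± 0.22 (SE), and 4 of the other Sult2a genes were not measured. Sult2b1, which sulfates cholesterol and pregnenolone, stood at -4.40 (a) and -3.94 (b) in DMSO cells and -4.37 (a) and -3.98 (b) in GW3965 cells. Sult4a1, a form known mainly from brain, stood at -3.48 (a) and -2.90 (b) in DMSO cells and -3.93 (a) and -3.04 (b) in GW3965 cells, a difference of -0.30 ± 0.39. Its second measured probe was not well above background on GW3965 replicate a, so the size of its difference cannot be set against that of the first. Sult5a1 stood at -1.18 (a) and -1.62 (b) in DMSO cells and -1.03 (a) and -1.33 (b) in GW3965 cells, a difference of 0.22 ± 0.25 (SE). Neither Sult4a1 nor Sult5a1 separated the treatments.

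The 11 measured members outside the naming rule had log2 differences from -0.24 to 0.08, and in each the treatments overlapped. Genes with more than 1 measured probe allowed the probes of a gene to be compared. There were 20 such genes with 43 probes. In 17 of them the log2 differences of the probes lay within 0.25 of each other, with a median range of 0.11, and in 12 all probes had the same sign. The median size of the difference over the members was itself 0.09. Probes of different genes could lie as close, so the closeness is no check on the values.

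The replicate letters separated the members where the treatments did not. In 39 of the 46 measured members both b arrays lay below both a arrays, against 28% of all genes, and in 6 both b arrays lay above both a arrays, against 38.4% of all genes. The 6 were Gsto1, Gsto2, Sult2b1, Sult4a1, Ugt2a1 and Gstm5, the last named after its values were seen, and Mgst2 was mixed. The median of b minus a was -0.42 with DMSO and -0.46 with GW3965 over the members, and 0.08 and 0.05 over all genes. Without regard to sign, the median gap was 0.57 over the members and 0.29 over all genes, while the median size of the difference between treatments was 0.09 and 0.10. The labels do not say what the letters mark, and no test was made of this difference.

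By family, both b arrays lay below both a arrays in 12 of 13 Ugt, 19 of 23 Gst and Mgst and 8 of 10 Sult genes. All 7 Ugt2b genes, all 4 Gsta genes, all 3 measured Gstt genes and all 5 measured Sult1 genes were among them. Other scalings were read by a looser count, of genes with b below a within each group. By it all Gsta and measured Sult1 genes stayed on the lower side under quantile, median and normexp processing. Over the members this looser count was also 39 in the main scaling. It was 39 after quantile normalization and median centring, which were chosen for this count after the data were seen, and 40 after normexp background correction. Over all 24638 genes the looser count moved more. It was 7827 in the main scaling, 8973 after quantile normalization, 10597 after median centring and 10198 after normexp. Separation of all 4 arrays by letter was not counted under those scalings. With normexp, Mgst2 moved to the lower side and Sult2b1 became mixed. Across the 46 members, which share the 4 arrays and are not independent, the b minus a differences of the groups had a correlation of r = 0.91, and across all genes r = 0.72. Each group's gap uses its own arrays.

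**Figure D2:**
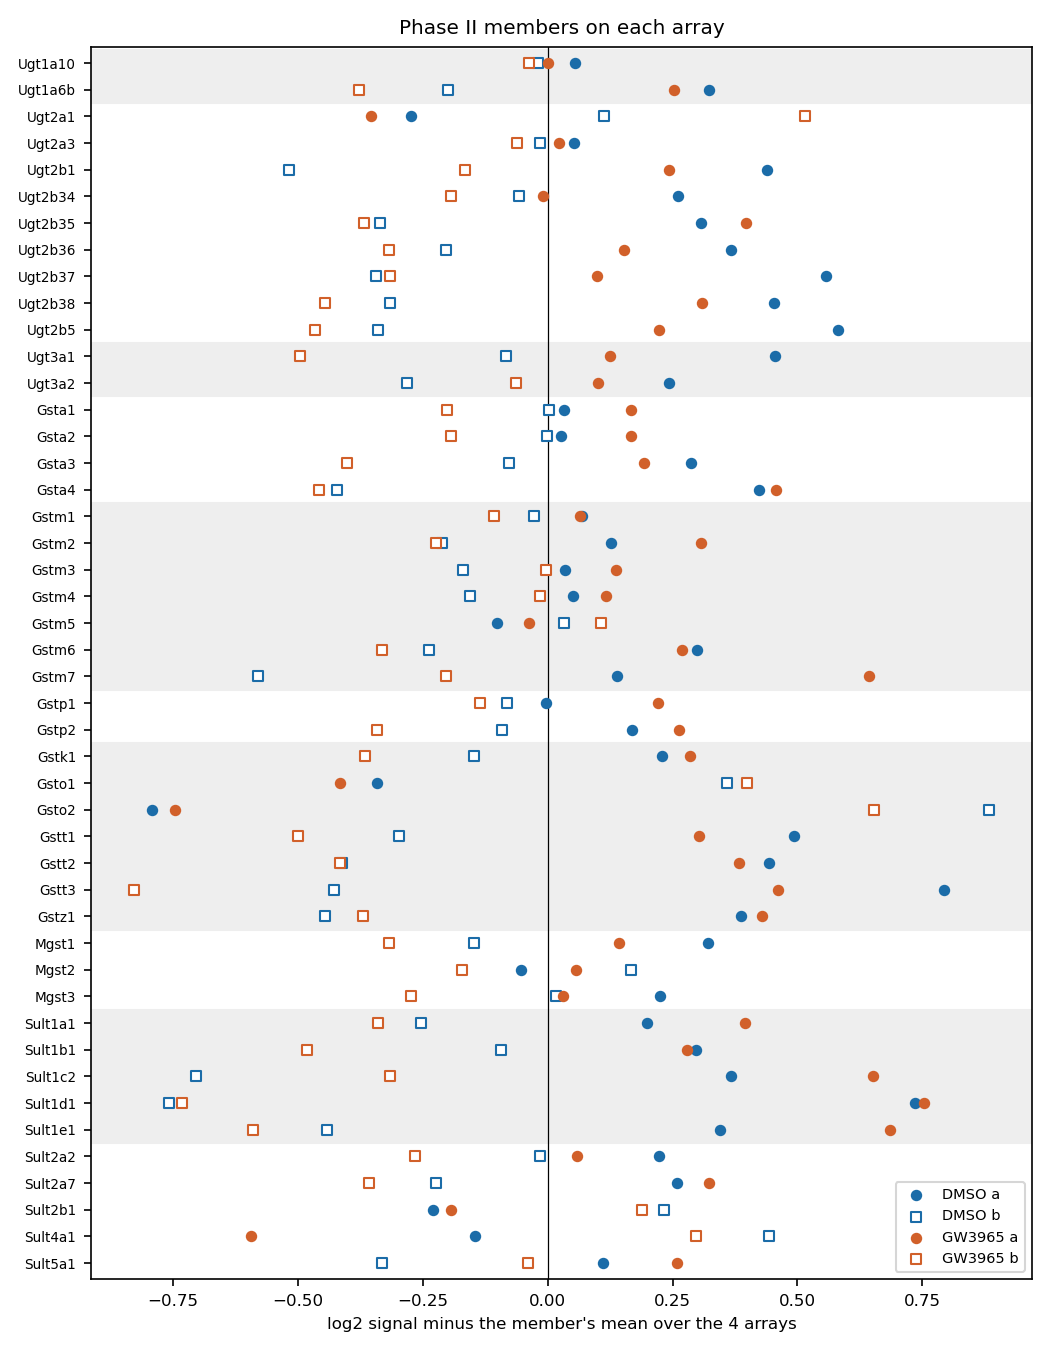
Log2 signal of each measured member on each array, minus that member's mean over the 4 arrays; circles are replicate a, open squares replicate b, blue DMSO and orange GW3965, with shading by family. In 39 of 46 members both squares lie left of both circles, whichever the colour.

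**Figure D3:**
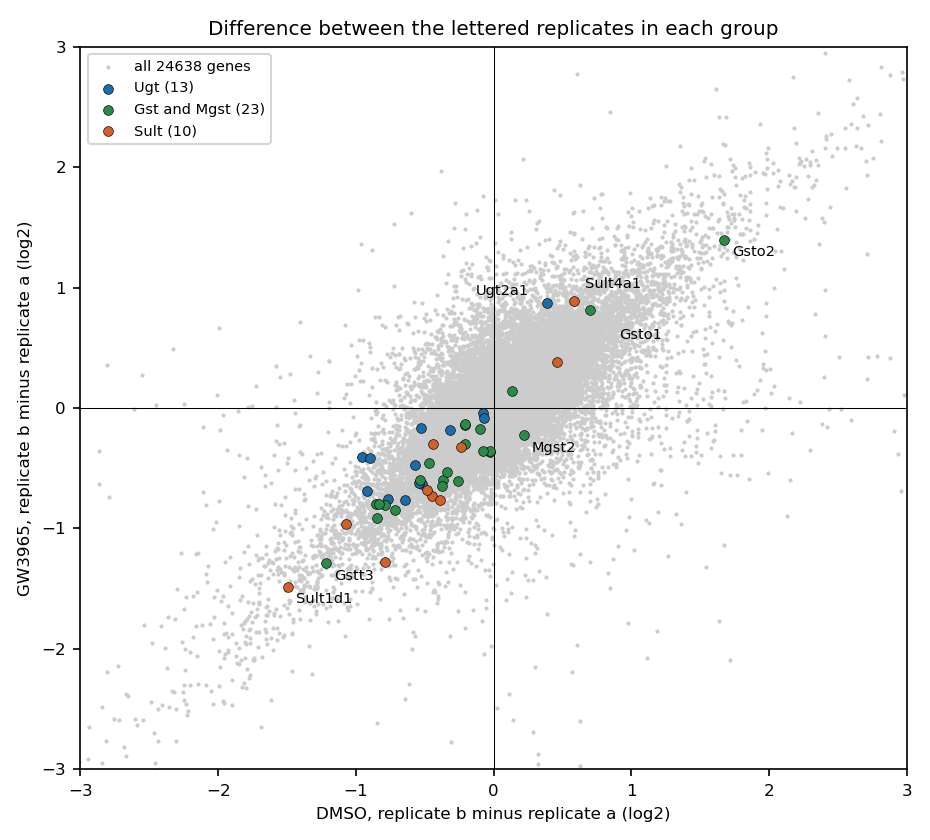
Replicate b minus replicate a on the log2 scale with DMSO (horizontal) and with GW3965 (vertical) for the members, coloured by group, over all 24638 genes in grey, of which 67 lie outside the axes. Most members fall in the lower left quadrant, 6 in the upper right and Mgst2 in the lower right.

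Marker genes differed between the letters as well. Both b arrays lay below both a arrays for 10 of 10 hepatocyte markers and 8 of 8 macrophage and leukocyte markers, against 28% of all genes. Both lay above for 4 of 6 endothelial, 4 of 6 stellate and fibroblast and 2 of 4 cholangiocyte markers, against 38.4% of all genes. In each of these latter lists 1 marker had both b arrays below both a arrays. Summed on the linear scale and then put on the log2 scale, the signal of the hepatocyte markers was 11.09 and 10.73 on DMSO replicates a and b and 11.19 and 10.51 on the GW3965 arrays. The macrophage and leukocyte sum was 5.55 and 4.82 with DMSO and 5.75 and 4.98 with GW3965. The endothelial sum was 5.01 and 5.29 and then 5.09 and 5.40, that of stellate cells and fibroblasts 6.29 and 5.71 and then 6.38 and 5.70, and the cholangiocyte sum 5.97 and 6.25 and then 5.84 and 5.99. Bright probes weigh most in such a sum. That of stellate cells and fibroblasts was lower on the b arrays although 4 of its 6 markers were higher there, and its brightest marker Dcn, named after its values were seen, read 6.10 (a) and 4.93 (b) in DMSO cells and 6.16 (a) and 4.77 (b) in GW3965 cells. Between treatments each of the 5 sums overlapped. Their part in the gap of the conjugating enzymes was not tested.

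The other parts of the pathway were read from lists in the same fit, and in each of them 0 genes passed an adjusted p under 0.05. The sensors of foreign compounds are nuclear receptors and other factors that switch on conjugating enzymes, and all 13 listed were measured, 1 of them higher and 1 lower without overlap between the treatments, against 9.41% and 6.55% of all genes. The higher one was Rxra, the partner of many of these receptors, named after its values were seen, at -0.51 (a) and -0.58 (b) in DMSO cells and -0.36 (a) and -0.45 (b) in GW3965 cells. Nr1i2 (PXR) stood at -2.20 (a) and -3.85 (b) in DMSO cells and -2.42 (a) and -4.07 (b) in GW3965 cells, Nr1i3 (CAR) at -0.38 (a) and -1.11 (b) in DMSO cells and -0.17 (a) and -1.47 (b) in GW3965 cells, and the aryl hydrocarbon receptor Ahr at 3.04 (a) and 0.88 (b) in DMSO cells and 2.79 (a) and 0.99 (b) in GW3965 cells. All 3 were higher on both a arrays than on both b arrays, as were 11 of the 13, against 28% of all genes. Nfe2l2 (NRF2), which drives glutathione-related genes, stood at 4.39 (a) and 4.50 (b) in DMSO cells and 4.10 (a) and 4.34 (b) in GW3965 cells, lower on both GW3965 arrays than on both DMSO arrays. The difference was -0.22 ± 0.20 (SE) with an unadjusted p of 0.315 in limma. Nr1h4 (FXR), the bile acid receptor, differed by -0.31 ± 0.30 with overlapping arrays.

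Of 12 marker targets of these sensors, 2 were higher without overlap and 0 lower, against 9.41% and 6.55% of all genes. They were Cyp1a2, an Ahr target, at 1.74 (a) and 2.06 (b) in DMSO cells and 2.16 (a) and 2.24 (b) in GW3965 cells, and heme oxygenase Hmox1, at 5.51 (a) and 5.70 (b) in DMSO cells and 5.91 (a) and 6.01 (b) in GW3965 cells. Their differences were 0.30 ± 0.21 and 0.36 ± 0.19 (SE), with unadjusted p of 0.214 and 0.121 in limma. Neither passed, and the median over the 12 was -0.02.

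Cosubstrate supply covers UDP-glucuronic acid, the sulfate donor and glutathione. Of its 17 genes 16 were measured, the means of 5 were higher and of 11 lower with GW3965, and the median difference was -0.09. Glutathione reductase Gsr differed by -0.17 ± 0.21 (SE), and Cbs, of the route from methionine to cysteine, by -0.14 ± 0.20. Neither separated the treatments. Of the 16, 0 were higher and 1 was lower without overlap, against 9.41% and 6.55% of all genes. That 1 was Ugp2, which makes UDP-glucose, named after its values were seen, at 3.41 (a) and 3.27 (b) in DMSO cells and 3.27 (a) and 3.20 (b) in GW3965 cells. The 14 measured genes of other conjugation and hydrolysis had a median of -0.08, and 0 of them were higher and 1 lower without overlap. Among them the arsenic methyltransferase As3mt stood at 1.30 (a) and 1.39 (b) in DMSO cells and 1.09 (a) and 1.05 (b) in GW3965 cells, the gene of that list with both GW3965 arrays below both DMSO arrays, by -0.28 ± 0.18 (SE). Hnmt, which methylates histamine, differed by 0.16 ± 0.25. The letters separated many genes of these lists too. Both b arrays lay below both a arrays in 9 of the 16 and 8 of the 14, against 28% of all genes. Both lay above in 5 and 3, against 38.4% of all genes.

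The deconjugating enzymes remove sulfate or glucuronic acid. Their list of 5 genes, with a median of 0.03, includes Sumf1, which itself removes neither. Steroid sulfatase Sts differed by 0.13 ± 0.19 (SE) and arylsulfatase Arsb by 0.10 ± 0.18. Of the 5, Arsb was higher without overlap and 0 were lower, against the same 9.41% and 6.55% of all genes. Of the 6 efflux transporters listed, most of which carry conjugates out of the cell, Abcc2 was higher without overlap. It stood at 4.06 (a) and 4.23 (b) in DMSO cells and 4.39 (a) and 4.52 (b) in GW3965 cells, a difference of 0.31 ± 0.19 (SE). Abcg2 was lower without overlap, at 4.40 (a) and 4.42 (b) in DMSO cells and 4.23 (a) and 4.29 (b) in GW3965 cells, by -0.15 ± 0.18. No other gene of the 6 separated the treatments. The unadjusted p-values of this pair were 0.173 and 0.453 in limma.

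**Figure D4:**
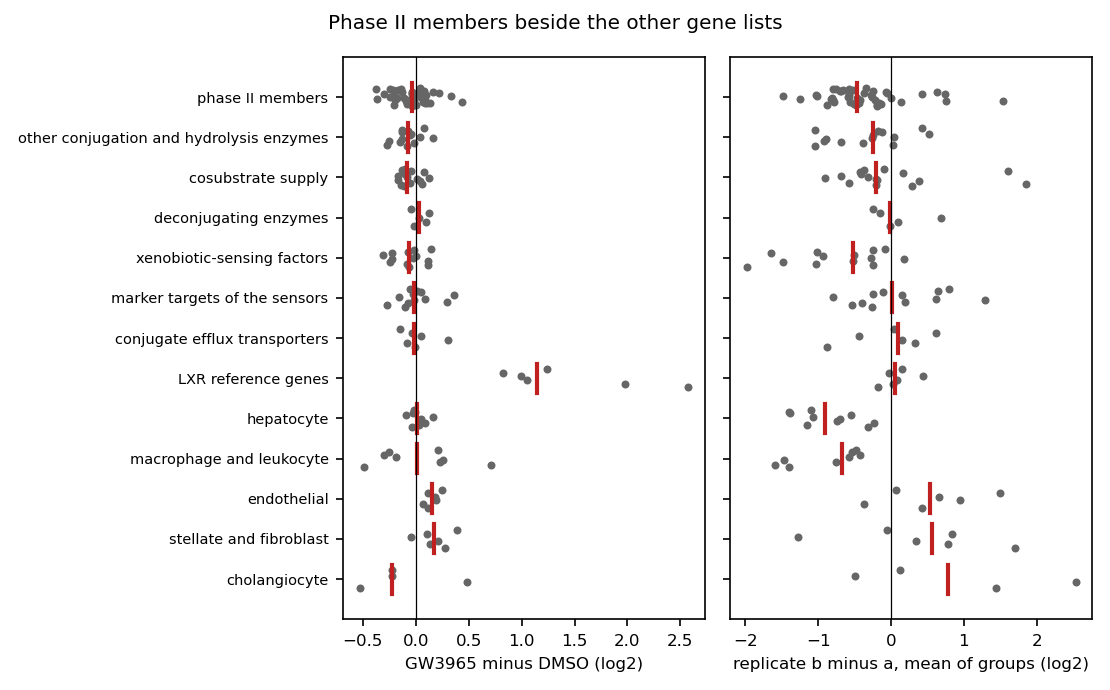
Log2 difference between treatments (left) and mean b minus a difference over the groups (right) for each measured gene of the phase II members and of the 12 other lists; each point is a gene and each red bar the list's median. On the left the LXR reference genes stand to the right at a median of 1.14 and the members at -0.04. On the right the members, the sensors, the hepatocyte and the macrophage markers lie mostly below 0. So do the lists of other conjugation and hydrolysis enzymes and of cosubstrate supply.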

How the data were processed

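RNA from 4 samples of primary mouse hepatocytes was labelled with Cy3 and hybridised to 1-colour Agilent arrays, per the labels. Per the file headers, the authors' deposited intensity is linear, background-corrected processed signal from Agilent Feature Extraction 10.7.3.1, with no scaling from array to array. Version 11.5.1.11 is the one in the submitters' processing notes, and the authors' value table holds the same intensity. Each array held 59305 spots other than controls. Probe positions are on mm9, per the file headers.

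Control spots and outlier spots (83 to 141 per array) were left out. The deposited intensity was turned to log2, repeated spots were averaged per probe, and the 75th percentile of its array was subtracted from each value. Kept were 35480 probes that both arrays of 1 group or more read well above background, and the probe with the highest mean stood for a gene, which gave 24638 genes. Names were updated through RefSeq accessions (assembly GRCm38.p6) for 26762 of the 55681 probes, and the others kept the name in the files.

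The group difference was fitted in R 4.3.3 with limma 3.58.1, two-sided, with no block, 2.72 prior and 2 residual degrees of freedom, and Benjamini-Hochberg adjustment over all genes at 0.05. The fit was tested on simulated data with independent noise and no gap between the letters. That test does not show how the fit performs with the gap of these arrays. Probes were aligned with Python 3.11.15, and figures drawn with matplotlib 3.10.9. The number of arrays limits the precision.

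The members, the gene lists and the rule for named genes were chosen with earlier results of these data known. The rule names, for each of 10 families, the 3 measured members with the highest mean, then the 6 smallest p-values in each direction, the 6 largest gaps between replicates, and from each pathway list the 2 smallest p-values, besides Abca1, Abcg1, Srebf1, Nr1i2, Nr1i3, Ahr and Nfe2l2. Alternatives were quantile normalization, median centring, normexp background correction (offset 50), the authors' value table, other filters, other treatments of a gene's probes, an intensity trend or robust prior, the replicate block, and each array left out.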

Additional observations from a re-analysis of the deposited data

How the results depend on the processing

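At an adjusted p under 0.05, 0 of the measured members passed under each of the 15 alternatives. Among these, the authors' value table holds the same intensity as the main input, so it had to give the main result. Over all genes 0 passed in each alternative except 2. The replicate block, which fits the letters a and b as pairs, passed 15 genes, and leaving out arrays gave 0 to 1, the 1 without DMSO replicate b. Same-lettered arrays of the groups deviated together (r = 0.72 across all genes), but only 2 pairs exist and the labels do not say that letters pair the arrays. With the block 4 members had an unadjusted p under 0.05 in limma, Gstm7, Ugt3a1, Gstt3 and Sult1c2. These are 8.7% of 46, against 5.41% of all genes, and 0 passed the adjustment. The SE of each of these 4 was 0.13 with the block. Without it the SE was 0.40 for Gstm7, 0.32 for Ugt3a1, 0.61 for Gstt3 and 0.50 for Sult1c2. Members higher without overlap numbered 1 of 46 with median centring, 1 of 55 with no filter, 2 of 46 with the mean of a gene's probes and 4 of 69 with each probe on its own, against 6.47%, 9%, 10.2% and 10.1% of all genes or probes. Members lower numbered 3, 2 and 2 in the last 3 of these, against 10.2%, 6.36% and 6.54%. With 1 array left out the counts ran from 3 to 18 of 46 higher and from 3 to 30 lower, against 23.9% to 34.3% and 22.1% to 32.8% of all genes. The member median stayed within -0.086 to -0.016 under the alternatives that kept all arrays. None of the single-gene differences below had passed the test. Quantile normalization turned the sign of Gsta1 to 0.010, Gsta2 to 0.0085, Gstp2 to 0.0054 and Gsto1 to 0.029. Median centring turned Ugt3a2 to -0.012 and Sult1d1 to -0.027, and the mean of a gene's probes turned Ugt1a10 to 0.042, Gstm1 to 0.094, Gstp2 to 0.00022 and Ahr to 0.075. Leaving out each array in turn turned the sign of 32 named genes, whose log2 differences then ran over the following ranges. Among the Ugt genes these ranges were -0.44 to 0.19 for Ugt1a6b, -0.073 to 0.00071 for Ugt1a10, -0.52 to 0.25 for Ugt2b38, -0.45 to 0.12 for Ugt2b36, -0.22 to 0.30 for Ugt3a2 and -0.27 to 0.60 for Ugt2a1. Among the Gst and Mgst genes they were -0.22 to 0.15 for Gsta1, -0.21 to 0.15 for Gsta2, -0.51 to 0.088 for Gsta3, -0.13 to 0.045 for Gstm1, -0.18 to 0.35 for Gstm2 and -0.38 to 0.22 for Gstp2. Next came -0.093 to 0.26 for Gstp1, -0.42 to 0.39 for Gsto1, -0.60 to 0.20 for Gstt1, -0.41 to 0.24 for Gstk1, -0.41 to 0.059 for Mgst1 and -0.00017 to 0.21 for Gstm4. Next came -0.93 to 0.75 for Gsto2, -1.01 to 0.28 for Gstt3 and -0.46 to 0.46 for Gsta4. Among the Sult genes they were -0.54 to 0.73 for Sult1e1, -0.72 to 0.77 for Sult1d1, -0.31 to 0.42 for Sult1a1, -0.00026 to 0.44 for Sult5a1, -0.74 to 0.15 for Sult4a1 and -0.24 to 0.23 for Sult2b1. Next came -0.20 to 0.87 for Sult1c2. Outside the members they were -0.10 to 0.43 for Hnmt, -1.15 to 1.01 for Ahr, -1.05 to 0.60 for Nr1i2 and -0.72 to 0.58 for Nr1i3. With 1 array left out, its group holds only 1 letter, so that group's b minus a gap enters the difference by construction. What lies behind the gap was not tested. Signal over background limits Sult2a2 and the second Sult4a1 probe, each with 1 array not well above background.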

Other observations

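Gstp3 and Sult2a8 belong to these families by the RefSeq accession of their probes, but the files name them otherwise, so the choice by name did not include them. Gstp3 read 1.73 (a) and 1.14 (b) in DMSO cells, 1.95 (a) and 1.51 (b) in GW3965 cells, a log2 difference of 0.30 ± 0.30 (SE), and the treatments overlapped. Sult2a8 read 1.54 (a) and 1.45 (b) in DMSO cells, 1.31 (a) and 1.33 (b) in GW3965 cells, a difference of -0.17 ± 0.18 (SE), with both GW3965 arrays below both DMSO arrays. Both were chosen for mention after their values were seen.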
